A study of Mus musculus with 6 samples.

Results

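The non-coding RNA genes of mouse long-term hematopoietic stem cells are described here as 155 rows of a deposited count table that held 11779 genes. The rows were chosen by the table's own gene type, ncRNA, and by a mean raw count of at least 20 over 6 libraries. Pvt1, Gas5, Rpph1, Rmrp and symbols that start with Snhg, Rn7s or Rny were left out by name. Of 325 ncRNA rows, 13 were left out by name and 157 had a lower mean count. Just inside the limit were C920006O11Rik with a mean count of 20.3, 1110019D14Rik with 20.2 and Gm11423 with 20. Just outside it were 0610043K17Rik with 19.8, 4930515G01Rik with 19.5 and 5830454E08Rik with 19.3. The levels therefore describe the choice, and the rule did not use the difference between genotypes. Raw counts give most weight to the deepest library, HET 1 of the groups below, so rows high in it pass more easily. At the limit, Gm11423 had raw counts of 26, 8 and 11 in WT and 52, 11 and 12 in HET. All 155 rows passed the low-count filter of the fit, so every row was tested.

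Long non-coding RNAs are transcripts that are spliced and capped much like messenger RNAs but have no long open reading frame. Some act in the nucleus, where they coat a chromosome, silence imprinted genes or gather in nuclear bodies. Others are mainly precursors: microRNAs or small nucleolar RNAs are cut from their introns or exons. Many start beside a protein-coding gene on the opposite strand. In blood stem cells the best known are Xist, Meg3 and the hosts of the miR-223, miR-99a/let-7c/miR-125b and miR-15a/16 clusters.

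The cells were sorted from bone marrow as Lin-Sca1+c-Kit+CD48-CD150+, and came from female mice aged 8 weeks. The WT group was c-Mycfl/+ with no Cre (n = 3 libraries), and the HET group was c-Mycfl/+Mx1Cre (n = 3 libraries). Animals of both groups thus carried a floxed Myc allele, and in HET the interferon-responsive Mx1 promoter drives Cre, which is not limited to stem cells. Deletion was induced with 3 injections of the interferon inducer poly(I:C) at 6 mg/kg. The sources do not say separately whether WT mice received it, so poly(I:C) and genotype cannot be told apart. Libraries were numbered 1, 3 and 4 in each group. Their titles call the HET libraries KO. Nothing says that each library is a separate animal, so the p-values measure the spread between these samples only.

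Total counts lay between 4249490 and 9886223, and HET 1 was the deepest library. Levels are given as CPM, the reads of a gene relative to the TMM-scaled size of its library, and 3 counts equal between 0.298 and 0.715 CPM. The targeted gene, Myc, was at 447, 427 and 542 CPM in WT and at 294, 387 and 372 CPM in HET. Its groups did not overlap, and its log2 fold change was -0.43 ± 0.12 (SE, adjusted p = 0.312). All 10 stem cell markers were tested, and their summed level was 2702 to 2989 CPM in WT and 2526 to 2961 CPM in HET. Summed megakaryocyte markers (6 of 6 tested) were at 754 to 769 CPM in WT and 900 to 1097 CPM in HET. Neutrophil markers (7 of 8 tested) were at 57.5 to 512 CPM and 125 to 390 CPM, and erythroid markers (5 of 9) at 736 to 812 CPM and 626 to 704 CPM. Genes listed as low in these stem cells (2 of 3 tested, Cd48 and Flt3) were at 34.3 to 64.8 CPM in WT. They were at 43.6 to 63.9 CPM in HET. B cell (1 of 5 tested) and T or NK cell markers (1 of 4) stayed at or under 34.3 CPM in every library. So did macrophage markers (5 of 6). Of all marker genes, 0 passed the test. The part of these cells in the results was not tested, and in bulk samples fewer cells of a type and less RNA per cell cannot be told apart.

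The label "long non-coding" holds for most but not all rows. In the GENCODE M21 annotation of GRCm38, 133 of 155 rows have a long non-coding type: 43 antisense, 42 processed transcript, 35 lincRNA and 13 bidirectional promoter lncRNA. The annotation also lists 3 microRNA genes (Mir6236, Mir6240, Mir27a), 3 pseudogenes, the small Cajal body RNA Scarna13 and the telomerase RNA Terc. The remaining 14 rows are protein-coding genes in it. They include A930011G23Rik, whose Ensembl ID is the gene Rasgef1b, 2210416O15Rik (Cuedc1), 1700012D01Rik (Nemp1), 5930430L01Rik (Katnal1), Rhno1 and Smim4. RefSeq also types 1810058I24Rik and 2310009A05Rik as protein-coding, so 16 rows are protein-coding in RefSeq or GENCODE. The name rule also let through 3 rows that carry the Snhg names of small nucleolar RNA host genes today. They are Gm11974 (Snhg15), 1810032O08Rik (Snhg16) and 2810008D09Rik (Snhg20). Small nucleolar RNAs are annotated inside 8 rows, which are described below. The rows have a median exonic length of 2880 bases (range 87 to 93092), and 9 lie on the X chromosome. Exons of 75 rows overlap those of a protein-coding gene, on the opposite strand in 72. Whether strand was used in the counting is not stated by any label, so reads of such overlapping genes cannot be told apart.

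Several rows enclose annotated microRNAs, and Mir27a and Mir6236 are themselves rows of microRNA genes. The mature sequences below are a selection from those annotated inside these rows. Where a precursor has a sequence annotated on each arm, the other arm is not shown. MicroRNAs annotated in Ftx, Meg3, Scarna13, 2810008D09Rik, 2900076A07Rik and Mir6240 are not shown either. Whether the reads of the Mir6236 row come from a microRNA precursor was not tested. The sequences come from RefSeq (GRCm38.p6), are written 5′ to 3′, and their seeds (bases 2 to 8) are in capitals. The mature microRNAs themselves were not measured here.

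mmu-miR-15a-5p (in Dleu2): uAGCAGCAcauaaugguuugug
mmu-miR-16-5p (in Dleu2): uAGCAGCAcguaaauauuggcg
mmu-miR-99a-5p (in Mir99ahg): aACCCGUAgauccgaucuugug
mmu-let-7c-5p (in Mir99ahg): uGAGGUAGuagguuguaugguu
mmu-miR-125b-5p (in Mir99ahg): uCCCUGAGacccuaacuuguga
mmu-miR-29b-3p (in A330023F24Rik): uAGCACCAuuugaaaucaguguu
mmu-miR-29c-3p (in A330023F24Rik): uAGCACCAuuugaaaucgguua
mmu-miR-223-3p (in F630028O10Rik): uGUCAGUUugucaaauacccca
mmu-miR-101a-3p (in E130102H24Rik): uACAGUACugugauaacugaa
mmu-miR-27a-3p (in Mir27a): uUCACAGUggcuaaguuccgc
mmu-miR-6236 (in Mir6236): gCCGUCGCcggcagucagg

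Of the sequences shown, those of Dleu2 share the seed AGCAGCA, and those of A330023F24Rik share AGCACCA. The sequences shown for Mir99ahg have 3 different seeds. The arms not shown for these rows have other seeds.

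The 155 rows together had a share of all counts of 2.62% ± 0.165 in the WT libraries and 2.51% ± 0.58 in the HET libraries (SD, n = 3). A few of them held most of that share. Malat1, a nuclear speckle RNA, made up 56.4% of the rows' summed level, and Malat1, Mir6236 and Xist together 80.8%. Only 10 rows exceeded 100 CPM on average, while 72 were under 10 CPM. The median level of the rows was 10.7 CPM, against 42.0 CPM for all 10869 genes tested. Per kilobase of exons, Mir6236 (34257 CPM per kilobase over 123 bases) stood above Malat1 (2076), Scarna13 (905), 1110038B12Rik (796) and Gm15564 (480). Xist was at 114 CPM per kilobase, and Kcnq1ot1, at a mean of 137 CPM over 6 libraries but 93092 bases long, at 1.47 CPM per kilobase. The spread was wider than for genes at large, which also lay at higher levels. Spread was not compared at like level, so the part of level in this was not tested. The median coefficient of variation was 27.2% in WT and 26.4% in HET for these rows, and 15.5% and 16.2% for all genes tested.

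Between genotypes, 1 of the 155 rows passed the test. A930011G23Rik fell in HET, and 0 rows rose. Over all genes tested the edgeR fit called 28 (0.258%), of which 4 were higher (0.0368%) and 24 lower (0.221%). The called share of the rows, 0.645%, is 1 gene. At an unadjusted p under 0.05 there were 8 higher and 4 lower rows (7.74%), beside 5.22% of all genes (2.02% higher and 3.19% lower). DESeq2 called the same row alone, and limma-voom called 0. The 3 HET libraries lay above all WT libraries in 14 rows (9.03%, against 4.69% of all genes) and below them in 8 rows (5.16%, against 5.64%). In either direction these were 14.2% of the rows and 10.3% of all genes. The median log2 fold change was 0.06 (quartiles -0.18 and 0.32) beside 0.00 for all genes, with 92 positive and 63 negative values. The median standard error was 0.402, against 0.216 for all genes, so a typical row needed a larger difference to pass. Without the 14 rows that GENCODE types as protein-coding, 0 of 141 rows passed, 14 lay higher and 6 lower without overlap, and the median was 0.06.

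**Figure D1:**
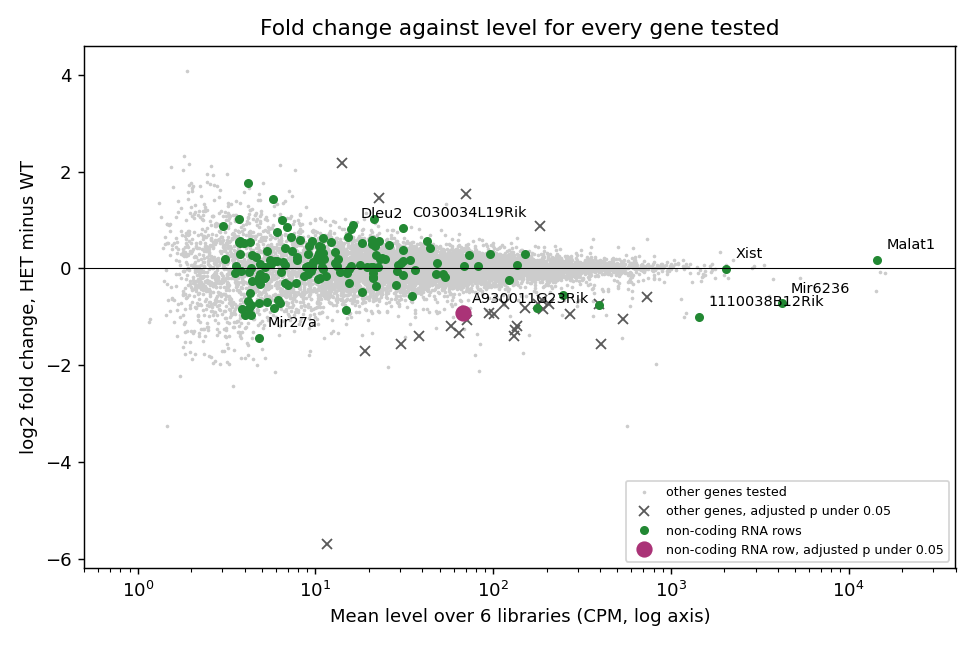
Fold change (log2, HET minus WT, vertical axis) against the mean level over 6 libraries (CPM, log axis) for every gene tested. Grey dots are other genes, crosses are other genes past the adjusted p of 0.05, green points the 155 non-coding RNA rows, and the purple point is A930011G23Rik at -0.93; Malat1 and Xist stand at the far right near 0.

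A930011G23Rik was at 101, 74.1 and 90.6 CPM in WT 1, 3 and 4 and at 56.9, 47.1 and 34.5 CPM in HET 1, 3 and 4. The highest HET value was thus under the lowest WT value. The means were 88.5 ± 13.5 and 46.2 ± 11.3 CPM (SD, n = 3), and the log2 fold change was -0.93 ± 0.19 (SE, 95% interval -1.33 to -0.53, adjusted p = 0.0369). The gene's ID (ENSMUSG00000089809) spans chr5:99217426-99729065 on the minus strand of GRCm38, where GENCODE M21 places Rasgef1b, a guanine nucleotide exchange factor gene. RefSeq lists A930011G23Rik inside that span as a lncRNA, at chr5:99297244-99729060. The table has no other row of that ID or name, so reads of the coding and the non-coding transcripts cannot be separated. The direction held in all 16 alternative fits (log2 fold change -1.12 to -0.75), and the call held in 10. It was lost with limma-voom (adjusted p = 0.116) and without WT 1 (0.299), WT 3 (0.0524), WT 4 (0.168), HET 3 (0.0915) or HET 4 (0.390).

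**Figure D2:**
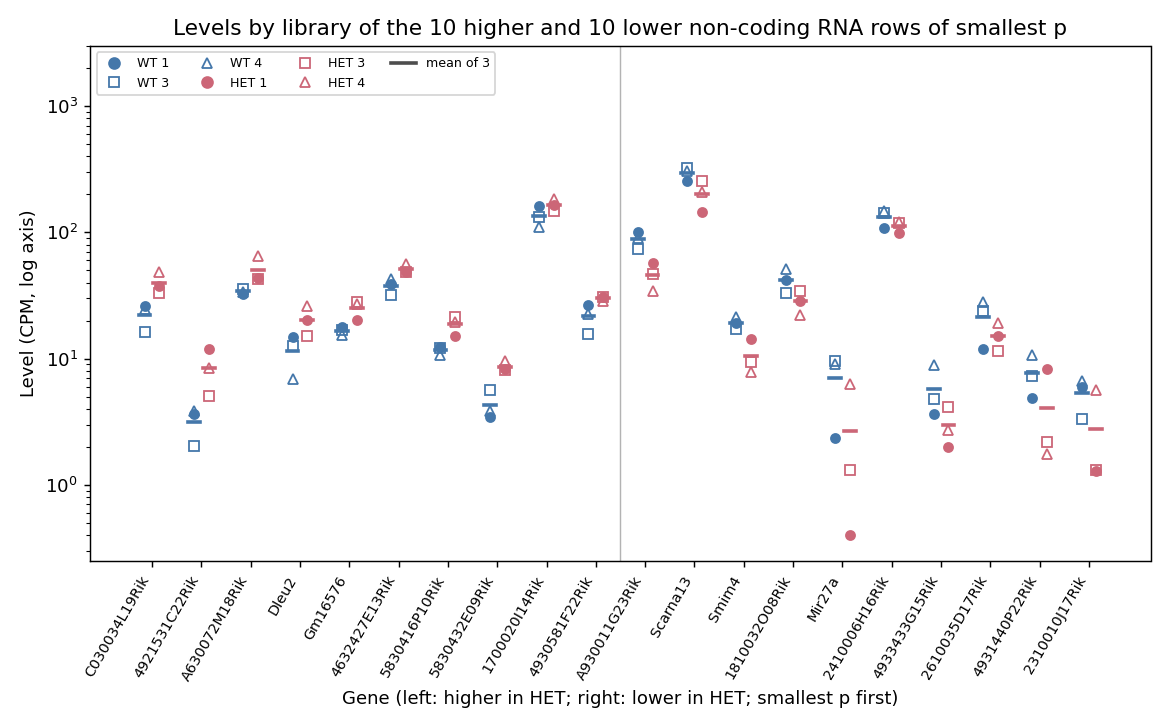
Levels (CPM, log axis) in each library of the 10 rows of smallest p with a higher HET mean (left) and the 10 with a lower HET mean (right). Symbols mark the library number, blue is WT, red is HET, and bars are means of 3; only A930011G23Rik, the leftmost row on the right side, passed the adjusted threshold.

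Among rows with higher HET means, C030034L19Rik had the smallest p. It was at 26.0, 16.1 and 24.8 CPM in WT and at 37.6, 33.4 and 48.7 CPM in HET, with no overlap. Its log2 fold change of 0.84 ± 0.25 did not pass (adjusted p = 0.342). This lincRNA (chr3:9403064-9437233, plus strand) has exons that overlap those of Zfp704 on the other strand, and Zfp704 itself differed by 0.05 ± 0.13. 4921531C22Rik had the largest log2 difference of these 10 rows, 1.44 ± 0.53 (adjusted p = 0.722). It was at 3.61, 2.01 and 3.82 CPM in WT and at 11.9, 5.02 and 8.38 CPM in HET, again without overlap. A630072M18Rik was at 32.7, 35.5 and 33.9 CPM in WT and at 43.6, 42.7 and 64.9 CPM in HET (0.57 ± 0.21, adjusted p = 0.722). Most of its difference lay in HET 4. The groups were also apart for Gm16576 (0.59 ± 0.27), 4632427E13Rik (0.43 ± 0.20), 5830432E09Rik (0.99 ± 0.47) and 4930581F22Rik (0.48 ± 0.25), and none of these passed (adjusted p from 0.936 to 0.958). AW112010, an interferon-inducible RNA of immune cells that is also translated, was at 13.5, 21.4 and 19.8 CPM in WT and at 25.3, 23.99 and 26.5 CPM in HET. The groups did not overlap, and the difference of 0.47 ± 0.27 did not pass (adjusted p = 0.980); this row was picked after its values were seen.

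Among rows with lower HET means, Scarna13 followed A930011G23Rik. This guide RNA directs modification of spliceosomal RNA in Cajal bodies. It was at 256, 323 and 306 CPM in WT and at 144, 254 and 209 CPM in HET. The lowest WT and the highest HET library nearly met, and the log2 fold change of -0.55 ± 0.18 did not pass (adjusted p = 0.579). HET 1 was at 53.3% of the mean of the other 5 libraries, and without it the value was -0.35 ± 0.13 (adjusted p = 0.365). Smim4, a small mitochondrial protein gene, was at 19.1, 17.01 and 21.5 CPM in WT and at 14.2, 9.38 and 7.79 CPM in HET (-0.86 ± 0.32, adjusted p = 0.722). Mir27a, a precursor row of 87 bases, was at 2.35, 9.51 and 9.06 CPM in WT and at 0.397, 1.31 and 6.24 CPM in HET. Its groups overlapped (-1.44 ± 0.82, adjusted p = 0.980), and without HET 1 the value was -0.86 ± 0.72. The other rows of this group, 2410006H16Rik (-0.23 ± 0.15), 4933433G15Rik (-0.97 ± 0.63), 2610035D17Rik (-0.48 ± 0.33), 4931440P22Rik (-0.83 ± 0.59) and 2310010J17Rik (-0.97 ± 0.70), all had overlapping libraries.

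HET 1 stood apart for several abundant, mostly short rows. Among the 83 rows at 10 CPM or more, 5 (6.02%) were in HET 1 under 50% of their level in the next-lowest library, against 0.442% of 9040 genes at that level. The same count was 1 row in WT 3, 1 in WT 4 and 0 in the others. The 5 rows were Mir6236, 1110038B12Rik, Gm15564, B230208H11Rik and Mir6240. Mir6236 was at 3474, 5859 and 6415 CPM in WT and at 1137, 3729 and 4668 CPM in HET. 1110038B12Rik, which holds Snord52, was at 1288, 2235 and 2235 CPM in WT and at 360, 1631 and 897 CPM in HET. Their HET 1 values were 23.5% and 21.7% of the mean of the other 5 libraries. Leaving HET 1 out moved Mir6236 from -0.72 ± 0.63 to -0.32 ± 0.36 and 1110038B12Rik from -0.997 ± 0.65 to -0.60 ± 0.45.

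Gm15564 was at 518, 491 and 470 CPM in WT and at 93.3, 384 and 407 CPM in HET, and B230208H11Rik at 239, 234 and 199 CPM and 38.1, 180 and 166 CPM. In both rows HET 3 and HET 4 also lay below every WT library. Their log2 fold changes moved from -0.75 ± 0.61 to -0.32 ± 0.11 for Gm15564 and from -0.82 ± 0.64 to -0.37 ± 0.13 for B230208H11Rik when HET 1 was left out, and neither passed (adjusted p for Gm15564 without HET 1 = 0.303). Mir6240 was at 1.79 CPM in HET 1 and at 76.0 CPM in HET 4, so its log2 fold change of 1.03 ± 1.44 rests on HET 4. HET 1 also had the smallest share of counts in RNA polymerase III transcripts, 3.61%, against 4.28% to 6.01% in the other libraries, and the smallest share in the 155 rows, 1.85%, against 2.49% to 2.88%. The part of this in the results was not tested beyond leaving HET 1 out.

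**Figure D3:**
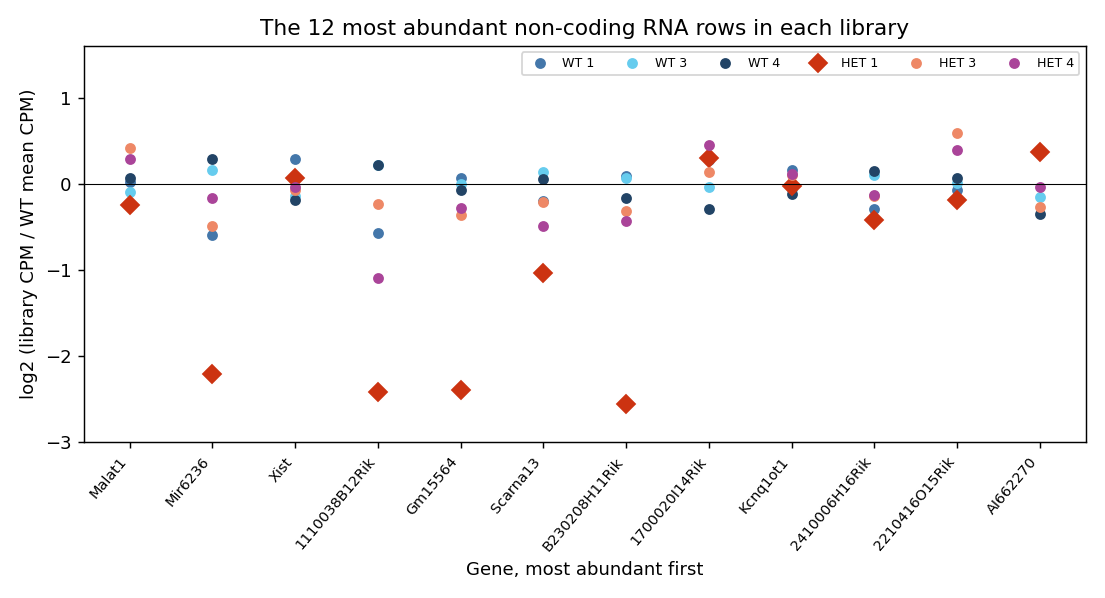
Each library's level relative to the WT mean (log2 of the CPM ratio, vertical axis) for the 12 most abundant rows. Points are libraries and the large diamond is HET 1, which lies far below the rest for Mir6236, 1110038B12Rik, Gm15564 and B230208H11Rik.

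Among RNAs of nuclear bodies, Malat1 was at 13793, 12765 and 14269 CPM in WT and at 11505, 18096 and 16573 CPM in HET. HET 1 was the lowest of all 6 libraries, and HET 3 and HET 4 the highest. With all libraries the log2 fold change was 0.18 ± 0.17 (adjusted p = 0.995). Without HET 1 it was 0.35 ± 0.07 (adjusted p = 0.00863), so the call for Malat1 turned on 1 library. Tug1, a conserved lncRNA found in nucleus and cytoplasm, was at 74.5, 55.4 and 69.2 CPM in WT and at 84.0, 80.5 and 77.4 CPM in HET. Its groups did not overlap (0.28 ± 0.16, adjusted p = 0.980).

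Of the X inactivation RNAs, Xist, which coats the inactive X chromosome, was at 2506, 1867 and 1802 CPM in WT and at 2153, 1962 and 1997 CPM in HET. The HET values lay inside the WT range (-0.01 ± 0.11, adjusted p = 0.998). The neighbours of Xist that promote its expression gave values of 0.37 ± 0.26 for Ftx and 0.32 ± 0.38 for Jpx, and neither passed.

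Of the imprinted RNAs, Kcnq1ot1, a paternally expressed RNA that silences genes around Cdkn1c, was at 150, 129 and 124 CPM in WT and at 132, 144 and 145 CPM in HET (0.06 ± 0.13). Meg3, the maternally expressed RNA of the Dlk1-Dio3 domain, whose microRNAs restrain PI3K-mTOR signalling in long-term stem cells, was at 9.92, 6.04 and 18.1 CPM in WT and at 8.13, 36.9 and 19.1 CPM in HET. Its libraries differed by several fold within each group (0.90 ± 0.55, adjusted p = 0.995). The deposited table thus shows no passing difference in either imprinted RNA, and the interval for Meg3, -0.32 to 2.13, is wide.

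Of the microRNA hosts, Dleu2, whose human counterpart is lost in chronic lymphocytic leukemia, was at 14.8, 12.6 and 6.92 CPM in WT and at 20.04, 15.05 and 26.1 CPM in HET. The groups did not overlap, and the closest values were 14.8 in WT 1 and 15.05 in HET 3 (0.82 ± 0.34, adjusted p = 0.813). Mir99ahg, host of the miR-99a, let-7c and miR-125b sequences given above, was at 5.23, 4.94 and 6.68 CPM in WT and at 6.15, 11.99 and 8.57 CPM in HET (0.65 ± 0.46, adjusted p = 0.995). F630028O10Rik, around the myeloid miR-223, was at 1.08, 4.76 and 1.43 CPM in WT and at 3.67, 3.49 and 7.79 CPM in HET (1.01 ± 0.70). Its groups overlapped. The host of the miR-29 seed family, A330023F24Rik (-0.31 ± 0.48), and that of miR-101a, E130102H24Rik (-0.06 ± 0.44), gave values on the other side of 0. Without HET 1 these were -0.03 ± 0.51 and 0.31 ± 0.42, so the sign for E130102H24Rik rests on that library. In all, 10 rows enclose an annotated microRNA, of which 7 had positive and 3 negative log2 fold changes (median 0.27), and 0 passed. Without HET 1 the counts were 8 and 2 (median 0.29). The tally includes Scarna13 (-0.55), the small Cajal body RNA described above, in which Mir3069 lies. With all libraries, 59.4% of the 155 rows and 50.7% of all genes tested had positive values.

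Small nucleolar RNAs lie inside 8 rows, of which 2 had positive and 6 negative log2 fold changes (median -0.33), and 0 passed. They include 1810032O08Rik (Snhg16, with Snord1a, Snord1b and Snord1c), at 41.7, 33.1 and 51.0 CPM in WT and at 28.8, 34.2 and 22.0 CPM in HET. HET 3 lay inside the WT range (-0.56 ± 0.23, adjusted p = 0.844). Gm11974 (Snhg15) gave -0.35 ± 0.26. 2410006H16Rik, which holds Snord49a, Snord49b and Snord65, was at 108, 142 and 147 CPM in WT and at 98.5, 120 and 120 CPM in HET. Of this kind, 2810008D09Rik (Snhg20), which holds a scaRNA rather than a snoRNA, gave 0.02 ± 0.29. Terc, the template RNA of telomerase, differed by -0.09 ± 0.30.

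Rows that later annotation named for a function gave values in both directions, and 0 passed. 1700020I14Rik (Oip5os1, also called Cyrano), which directs the decay of miR-7, was at 163, 132 and 110 CPM in WT and at 166, 148 and 185 CPM in HET (0.30 ± 0.14, adjusted p = 0.950). 5830416P10Rik (Mirt1) was at 12.4, 12.1 and 10.7 CPM in WT and at 15.2, 21.4 and 19.5 CPM in HET, without overlap (0.66 ± 0.31, adjusted p = 0.937). 1190002F15Rik (Lockd), transcribed downstream of the cell cycle inhibitor Cdkn1b, gave 0.21 ± 0.26. 2810468N07Rik (Cerox1), a regulator of mitochondrial complex I, gave -0.65 ± 0.54. Trp53cor1, known as lincRNA-p21 and induced by p53, was at 5.95, 4.94 and 7.87 CPM in WT and at 8.63, 6.98 and 4.87 CPM in HET (0.14 ± 0.47). The rows of other small mitochondrial proteins were level with their errors, with 0.22 ± 0.40 for 1500011K16Rik (Mtln), -0.17 ± 0.38 for 2310009A05Rik (Pigbos1) and 0.08 ± 0.23 for 1810058I24Rik (Stmp1).

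**Figure D4:**
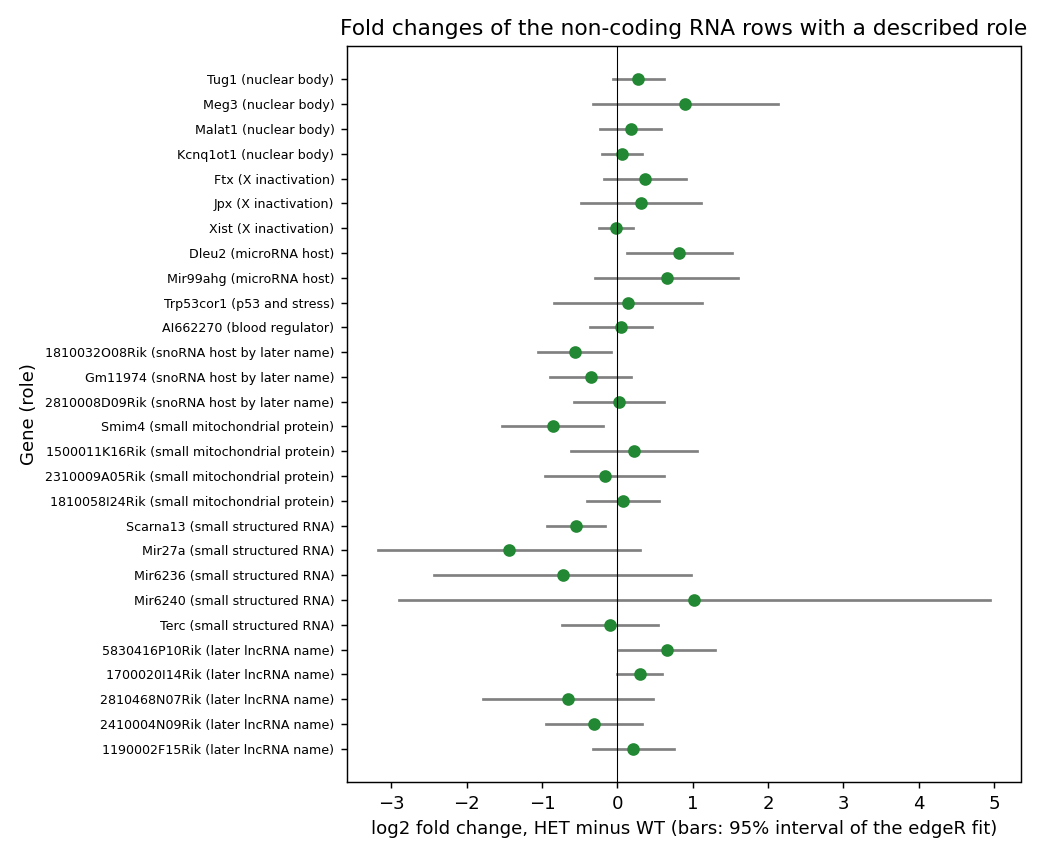
Log2 fold change, HET minus WT (horizontal axis), of the rows with a described role, named on the vertical axis with the role. Points are estimates and bars their unadjusted 95% intervals from the edgeR fit; the bars of Dleu2, 1810032O08Rik, Smim4, Scarna13 and 5830416P10Rik leave out 0, but no row shown passed after adjustment.

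Many of these RNAs start beside a coding gene, so each row was set beside the nearest measured protein-coding gene. Of the rows, 150 had a tested neighbour (149 different genes), and 57 rows start within 1000 bases of it in the divergent direction. Gene bodies of row and neighbour overlapped in 75 pairs, and use of strand in the counting is not stated. By edgeR 0 neighbours passed, 14 (9.40%, against 5.22% of all genes) had an unadjusted p under 0.05, and 17 (11.4%, against 10.3%) did not overlap between the groups. DESeq2 called 2, Isca1 and Tiparp, and limma-voom called 0. The signs of row and neighbour were alike in 74 of 150 pairs (49.3%) and in 30 of 57 divergent pairs (52.6%). Across genes, which share libraries and are not replicates, Spearman's rho was -0.02 over all pairs and 0.15 over divergent pairs.

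Dleu2 and Trim13, whose gene bodies overlap on opposite strands, had values on opposite sides of 0. Trim13, a ubiquitin ligase gene, was at 20.4, 16.1 and 10.97 CPM in WT and at 9.82, 13.7 and 8.18 CPM in HET (-0.59 ± 0.35, adjusted p = 0.980), beside 0.82 ± 0.34 for Dleu2. Other neighbours gave values on both sides of 0. Among them were Taf4a beside 4921531C22Rik at 0.04 ± 0.16, Rsbn1l beside A630072M18Rik at 0.17 ± 0.14, Sun2 beside Gm16576 at -0.01 ± 0.10, and Hnrnpdl, 304512 bases from A930011G23Rik, at 0.06 ± 0.11. Glrx5, which starts 1339 bases from Scarna13, gave -0.40 ± 0.22. Pbrm1 beside Smim4 gave 0.27 ± 0.16 and Zswim4 beside Mir27a 0.06 ± 0.15. Rhbdf2, 44641 bases from 1810032O08Rik, gave 0.37 ± 0.30. Exons of 1810032O08Rik overlap those of St6galnac2, which was not the nearest measured gene.

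Of the pairs, 3 were picked after their values were seen. Cdkn1a, the cell cycle inhibitor gene next to Trp53cor1, was at 65.3, 40.1 and 34.8 CPM in WT and at 31.0, 11.3 and 8.77 CPM in HET. Its groups did not overlap (-1.41 ± 0.48, adjusted p = 0.788), while those of Trp53cor1 overlapped. Without HET 1 Cdkn1a gave -2.22 (adjusted p = 1.56e-04). Isca1, an iron-sulfur cluster assembly gene beside Etohd2, was at 258, 194 and 220 CPM in WT and at 172, 99.4 and 106 CPM in HET (-0.83 ± 0.19, adjusted p = 0.182 by edgeR and 0.00524 by DESeq2). Without HET 1 the edgeR value was -1.13 (adjusted p = 2.11e-05). Etohd2 itself differed by -0.10 ± 0.63. Tiparp beside 4931440P22Rik was at 110, 54.0 and 36.5 CPM in WT and at 33.9, 25.5 and 25.1 CPM in HET (-1.24 ± 0.36, adjusted p = 0.553 by edgeR and 0.0195 by DESeq2), and without WT 4 edgeR gave -1.52 (adjusted p = 0.0194).

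**Figure D5:**
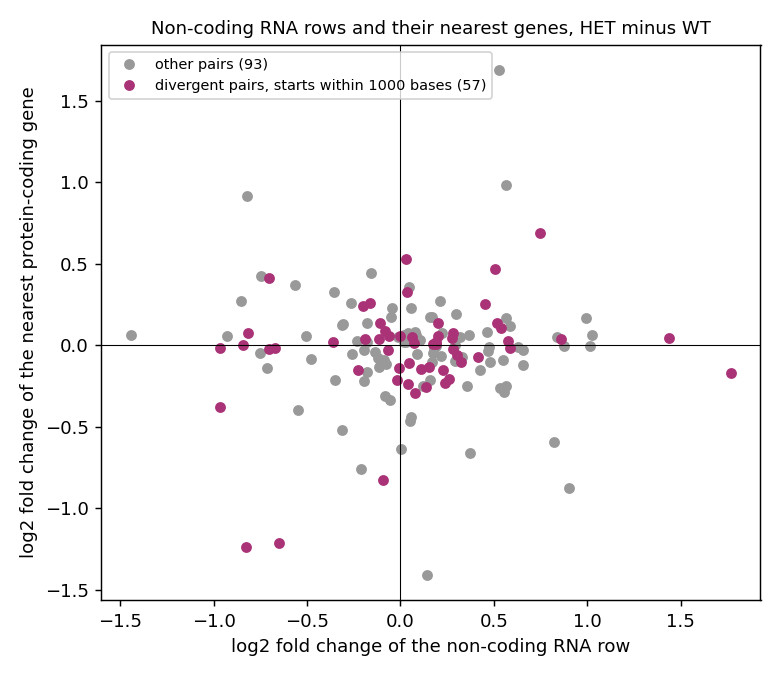
Log2 fold change of the nearest protein-coding gene (vertical axis) against that of the non-coding RNA row (horizontal axis), HET minus WT, for 150 pairs. Purple points are the 57 divergent pairs whose starts lie within 1000 bases and grey points the others; the points spread to every side of the origin, with 74 pairs of like sign.

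Genes for proteins that bind or process nuclear non-coding RNA had median log2 fold changes close to 0 in each list. A list of imprinted protein-coding genes, which is of another kind, was set beside them. Of paraspeckle and speckle protein genes, 0 of 18 passed, with a median log2 fold change of 0.03. Rbm14 gave 0.23 ± 0.18, Pspc1 0.17 ± 0.13, Dazap1 0.20 ± 0.13 and Srsf5 -0.21 ± 0.11. Of 14 tested genes for XIST partner proteins 0 passed (median -0.04). The X-silencing factor Smchd1 gave 0.30 ± 0.14, and Rlim, an X-linked ubiquitin ligase that promotes Xist expression, -0.26 ± 0.12 (adjusted p = 0.950 for both). Of 18 genes for nuclear RNA decay and export 0 passed (median 0.05), with Nxf1, the main mRNA export receptor, at -0.22 ± 0.12 and Drosha, the microRNA-processing nuclease, at 0.16 ± 0.12. Of 17 imprinted protein-coding genes 0 passed (median -0.03), among them Igf2r at -0.37 ± 0.20 and Peg10 at -0.64 ± 0.44. Their values ranged from -0.87 to 0.90, with a median standard error of 0.28. At an unadjusted p under 0.05 were 2 of the 66 different genes in these lists (3.03%, against 5.22% of all genes), Smchd1 and Rlim, and DESeq2 and limma-voom called 0 in each list.

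Promoters are given as examples for Dleu2 and 5830416P10Rik, whose groups did not overlap, and for Meg3, whose groups did. Each holds a motif searched for below, and these rows were picked after their values were seen. The windows run from 250 bases before to 50 after the RefSeq start on GRCm38.p6, 5′ to 3′ along the gene's strand, with the motif in capitals.

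Dleu2, chr14:61682324-61682623, minus strand: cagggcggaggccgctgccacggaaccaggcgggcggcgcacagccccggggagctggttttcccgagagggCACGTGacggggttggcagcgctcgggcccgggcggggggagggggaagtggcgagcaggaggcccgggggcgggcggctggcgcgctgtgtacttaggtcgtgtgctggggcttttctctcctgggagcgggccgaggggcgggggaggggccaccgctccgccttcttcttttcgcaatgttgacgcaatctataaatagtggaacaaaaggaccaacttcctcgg
Meg3, chr12:109540746-109541045, plus strand: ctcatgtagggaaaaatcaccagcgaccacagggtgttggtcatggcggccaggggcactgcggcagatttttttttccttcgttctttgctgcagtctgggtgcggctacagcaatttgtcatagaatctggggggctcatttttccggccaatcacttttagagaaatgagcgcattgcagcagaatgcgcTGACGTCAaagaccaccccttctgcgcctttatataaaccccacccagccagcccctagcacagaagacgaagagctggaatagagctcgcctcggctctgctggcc
5830416P10Rik, chr19:53464747-53465046, minus strand: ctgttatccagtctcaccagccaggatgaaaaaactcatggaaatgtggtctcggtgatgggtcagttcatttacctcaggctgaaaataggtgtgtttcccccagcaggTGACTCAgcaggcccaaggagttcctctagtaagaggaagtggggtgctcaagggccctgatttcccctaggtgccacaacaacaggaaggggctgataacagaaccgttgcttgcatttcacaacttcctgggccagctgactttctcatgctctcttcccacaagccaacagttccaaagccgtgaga

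The motifs searched, on both strands, were the MYC-MAX E-box CACGTG, the cAMP response element TGACGTCA, and the AP-1 letters TGAGTCA or TGACTCA. A promoter was in the RefSeq table for 123 rows. CACGTG was in 17 of them (13.8%), in 12.2% of 8769 genes tested and in 8.09% of 27025 genes in the table. TGACGTCA was in 3 (2.44%, against 3.73% of genes tested), and the AP-1 letters in 5 (4.07%, against 4.07%). In Dleu2 the E-box begins 178 bases before the start (position -178). In Meg3 the response element lies at -57, and in 5830416P10Rik the AP-1 letters lie at -140. A match is a description of these letters only.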

How the data were processed

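RNA-seq counts of 6 libraries (WT and HET, 3 each) were used. The authors deposited whole-number read counts per gene. FastQC, STAR 2.5.2b, edgeR, limma and mm10 are named in the submitters' processing notes, with no role or order. The read counter, library kit, annotation and use of strand: not given in the sources used here. The protocol text attached to the samples describes another study and was not used. Groups follow the genotype label.

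All 11779 rows entered edgeR 4.0.16 (R 4.3.3): filterByExpr removed 910, leaving 10869, with TMM scaling, a robust quasi-likelihood F test of HET against WT, and Benjamini-Hochberg adjustment over all genes (threshold 0.05). The common biological coefficient of variation was 20.7%. Standard errors come from the F statistic. Scripts were tested on simulated counts. The members, gene lists and tests were chosen with earlier results of these data known. Named were called rows, the 10 rows of smallest p per direction, the 10 most abundant, the 5 highest per kilobase, members of the role lists, neighbours, up to 4 genes per protein list, and the rows at the count limit. Others, including later names and small-protein rows, were picked after the data were seen. Positions come from GENCODE M21, sequences from RefSeq. A RefSeq entry was found for 153 of 155 rows by gene ID. Alternatives covered scaling, filters, DESeq2 1.42.0, limma-voom (limma 3.58.1), the library number as a block, thinning of HET 1 and leaving out each library.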

Additional observations from a re-analysis of the deposited data

How the results depend on the processing

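Rows called lower, 1 in the reported fit, were 0 with limma-voom, 2 with the replicate block, 0 without the rows of GENCODE type protein_coding (added after seeing the data), and 0 to 1 when a library was left out. Rows called higher were 0 to 1, neighbours called 0 to 2. Rows without overlap numbered 18 to 26 higher and 12 to 20 lower, since fewer libraries overlap less often. The shares over all genes were not counted for these fits, so these counts are not set against them. In these fits the median log2 fold change of the rows was 0.0085 to 0.1293. Neighbours called were 2 with DESeq2 and 3 with the block. Over all genes, calls numbered 57 with DESeq2, 49 with the block, 23 with limma-voom, and 10 to 68 when a library was left out (68 without HET 1, 10 without HET 4, 11 without WT 1). A mean count of 10 gave 220 rows and of 50 gave 92.

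Whether library numbers pair the samples was not settled. Deviations of same-numbered libraries correlated at 0.114, -0.049 and 0.069, and those of unlike number at -0.18 to 0.12. Among WT libraries only WT 1 correlated highest with its own number, and among HET libraries HET 1 and HET 4 did. These values are small and each group had 3 libraries, so they do not decide it. With the number as a block, Scarna13 passed (-0.57, adjusted p = 0.0429), as did Cdkn1a, Isca1 and Tiparp; A930011G23Rik gave -0.95 (0.0224).

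Among named genes 980 values kept direction and side of the threshold, and 22 changed sign. The cause was not tested. Leaving out each library gave log2 fold changes of -0.4533 to 0.3655 for 1110019D14Rik, -0.148 to 0.2961 for AI662270, -0.3065 to 0.724 for Gm11423, -0.0254 to 0.1536 for Hnrnpdl, -0.0421 to 0.0184 for Sun2, -0.1048 to 0.1803 for Taf4a, -0.075 to 0.3376 for Trp53cor1, -0.1004 to 0.1494 for Xist, -0.0123 to 0.133 for Zfp704 and -0.0312 to 0.1737 for Zswim4. With limma-voom 1110019D14Rik gave -0.1264 and Xist 0.0018, and with the block -0.0264 and 1e-04.

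Of the 155 rows, 72 were under 10 CPM, with a median standard error of 0.55 (0.29 for the other 83), and a miss of the threshold does not show that values did not differ.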
